A study of Mus musculus with 14 samples.

Results

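The genes described here are 7 genes that mark the eosinophil, a granulocyte of allergic and antiparasitic responses, out of 24463 genes measured in leukemic stem cells (LSCs) of mice. They were chosen by name, with earlier results of these data known: Prg2, Prg3 and Epx encode granule proteins, Ear1 and Ear2 granule ribonucleases, and Il5ra and Ccr3 receptors. The choice rested on their levels across all 5 groups, so those levels and the differences between groups are given as a description and without a p-value.

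Eosinophils arise in bone marrow from progenitors that begin to make granule proteins before they acquire their mature shape. Major basic protein (Prg2) forms the crystalline core of the granule, eosinophil peroxidase (Epx) and the eosinophil-associated ribonucleases (Ear genes in mice) fill its matrix, and interleukin 5, read by the alpha chain Il5ra with a shared beta chain, drives expansion and survival of the lineage. Ccr3 is the receptor for eotaxins, the chemokines that draw eosinophils into tissue. GATA and C/EBP factors are the transcription factors known to set up the programme.

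The cells were lineage-negative bone marrow cells infected with a retrovirus for p210 BCR-ABL, the fusion kinase of chronic myeloid leukemia, and then sorted as GFP+, c-Kit+ and Sca1+, here called LSCs. They were in culture with stem cell factor and thrombopoietin for 48 h from isolation, with virus added on 2 occasions. Untreated LSCs came from marrow deficient in Tcf1 and Lef1, a pair of Wnt pathway transcription factors (dKO, n = 3), or from wild-type marrow (WT, n = 3). LSCs of control marrow were exposed for 6 h to 20 µM prostaglandin E1 (PGE1, n = 3), 20 µM prostaglandin E2 (PGE2, n = 2) or the vehicle DMSO (n = 3). All groups carried BCR-ABL, and none was of uninfected cells or of mature eosinophils. The means of deleting Tcf1 and Lef1 is not stated in the labels. The labels do not tie replicates to separate mice or cultures. Each p-value therefore reflects variation among these libraries alone, and that variation may be technical.

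Groups follow the sample titles, against which the genotype field runs for dKO replicate 1 and DMSO replicate 1. Tcf7, the gene for Tcf1, was at 0.142 FPKM in dKO replicate 1 and at 1.03 FPKM in DMSO replicate 1, as the titles have it. Tcf7 averaged 0.0997 ± 0.0674 FPKM in dKO and 1.31 ± 0.17 FPKM in WT LSCs (SD, n = 3 each). Depth was 19.0 to 22.7 M reads in treated and 31.3 to 33.8 M in untreated libraries. Levels are FPKM, fragments scaled to gene length and library depth, so they can be compared between genes. Among the sort markers, Kit (c-Kit) averaged 23.0 ± 2.6 FPKM across dKO libraries against 28.0 ± 0.6 FPKM across WT libraries, while Ly6a (Sca1) averaged 3.12 ± 0.36 FPKM across dKO libraries against 11.3 ± 1.2 FPKM across WT libraries. Both fell in dKO (limma on log2(FPKM + 1), Benjamini-Hochberg adjusted p = 0.0194 for Kit and 1.24e-05 for Ly6a). Leaving out dKO replicate 3 (adjusted p = 0.06), WT replicate 1 (0.0678) or WT replicate 2 (0.06) ended the call on Kit.

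RefSeq promoter windows, 250 bases before to 50 after the start of transcription, were found for 6 of the 7 genes. The windows of Prg3 and Epx are shown because their transcripts were low together in PGE1 but differed in dKO, and those of Ear1 and Ear2 because the genes are near copies. They are printed 5′ to 3′ in the sense of the gene, with capitals marking GATAA or its reverse complement TTATC, the core letters read by GATA factors.
Prg3: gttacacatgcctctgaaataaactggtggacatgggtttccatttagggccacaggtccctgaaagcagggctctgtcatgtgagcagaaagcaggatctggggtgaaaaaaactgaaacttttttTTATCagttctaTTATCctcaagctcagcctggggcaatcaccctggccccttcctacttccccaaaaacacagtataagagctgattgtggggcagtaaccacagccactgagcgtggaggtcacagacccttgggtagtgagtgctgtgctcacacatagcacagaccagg
Epx: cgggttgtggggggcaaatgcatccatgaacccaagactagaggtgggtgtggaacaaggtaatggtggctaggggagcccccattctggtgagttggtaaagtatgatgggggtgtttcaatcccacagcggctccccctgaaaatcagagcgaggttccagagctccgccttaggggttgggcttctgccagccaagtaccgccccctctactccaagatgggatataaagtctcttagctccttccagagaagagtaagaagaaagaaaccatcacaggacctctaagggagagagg
Ear1: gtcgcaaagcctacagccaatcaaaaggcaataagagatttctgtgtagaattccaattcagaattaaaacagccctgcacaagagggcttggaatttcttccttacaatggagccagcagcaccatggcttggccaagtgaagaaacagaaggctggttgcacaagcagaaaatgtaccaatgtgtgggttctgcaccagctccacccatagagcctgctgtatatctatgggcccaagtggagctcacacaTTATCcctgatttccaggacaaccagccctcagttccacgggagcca
Ear2: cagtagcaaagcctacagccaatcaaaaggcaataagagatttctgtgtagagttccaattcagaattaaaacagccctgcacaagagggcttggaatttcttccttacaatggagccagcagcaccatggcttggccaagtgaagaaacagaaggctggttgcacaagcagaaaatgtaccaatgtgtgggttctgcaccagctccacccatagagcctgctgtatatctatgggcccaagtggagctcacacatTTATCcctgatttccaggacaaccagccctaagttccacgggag
On GRCm38.p6 these lie at chr2:84987965-84988264, forward strand for Prg3, chr11:87875487-87875786, reverse strand for Epx, chr14:43819590-43819889, reverse strand for Ear1, and chr14:44102404-44102703, forward strand for Ear2. The Prg3 window held 2 matches, the Ear1, Ear2, Il5ra and Ccr3 windows 1 each, and the Epx window 0. GATAA on either strand was thus present in 5 of 6 windows, and in 25.4% of 32851 windows of 300 bases from RefSeq. TTGCNNAA, a C/EBP-like pattern also searched on both strands and not overlapping the first motif, was in the Ear1 and Ear2 windows only, 2 of 6, and in 10.8% of the same 32851 windows. A match is a run of letters and not a binding site. The Ear1 and Ear2 windows were 99.0% identical over 297 aligned bases.

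Among the 7 genes, the granule protein genes had the highest levels in untreated LSCs, and the ribonuclease and receptor genes lay near or below 1 FPKM. Prg2 stood at ranks 146 to 219 among all genes by FPKM in dKO libraries and 158 to 175 in WT libraries. It supplied 84.2% to 85.5% of the summed FPKM of the 7 genes in dKO and 86.0% to 87.4% in WT. In WT LSCs the order of mean levels was Prg2 at 166.2 FPKM, Prg3 at 13.3, Epx at 9.91, Ear2 at 1.32, Ear1 at 0.431, Ccr3 at 0.278 and Il5ra at 0.161 FPKM. Neighbours in that order from Ear2 downwards did not all separate beyond their spread: Ear2 lay above Ear1 in every WT library, but the lowest Ear1 library, at 0.307 FPKM, lay below the highest Ccr3 library, at 0.315 FPKM. The mouse eosinophil surface lectin Siglecf, named after its values were seen, was at 3.03 to 3.20 FPKM in dKO against 5.49 to 6.38 FPKM in WT libraries. Il5ra was covered by only 8 to 9 reads per dKO library and 13 to 23 reads per WT library.

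**Figure D1:**
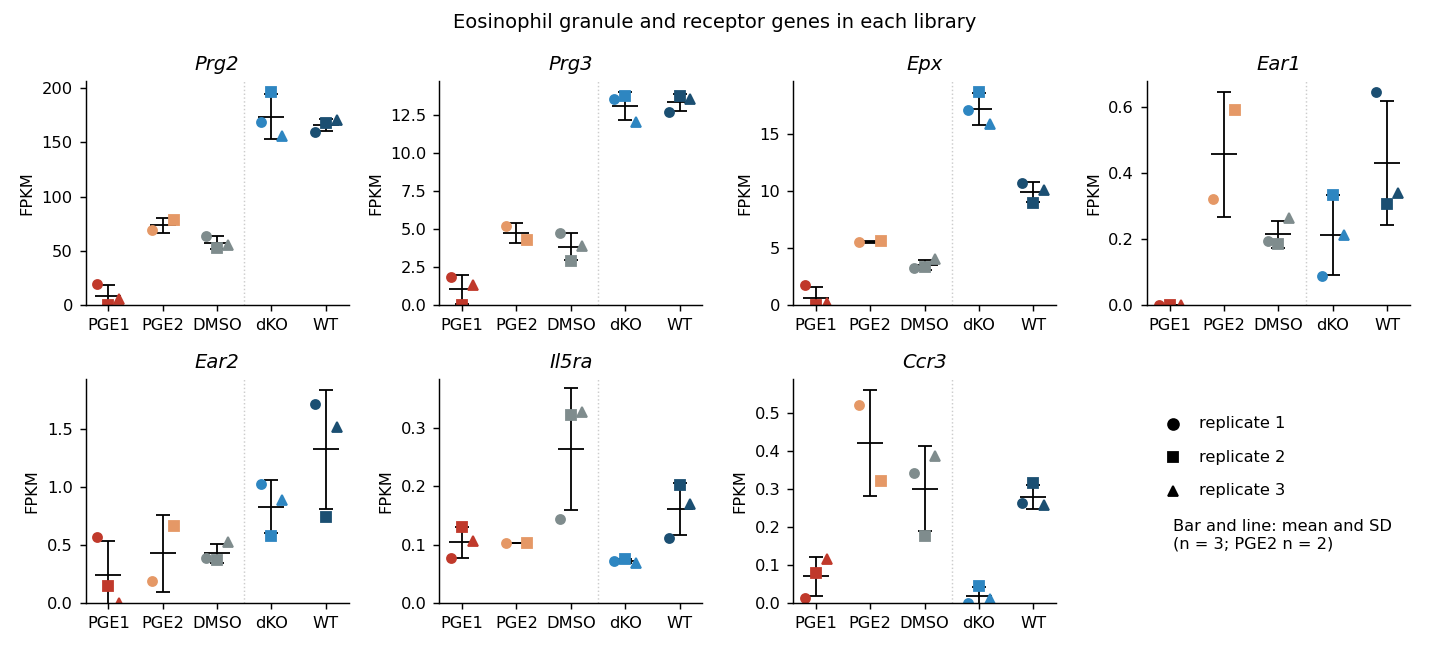
FPKM of the 7 genes in every library, by group (PGE1, PGE2 and DMSO left of the dotted line, dKO and WT right of it). Points are libraries with a marker for each replicate, and bars show the mean and SD, cut at 0. PGE1 libraries scatter from 0.245 to 19.3 FPKM for Prg2, and the scale differs between panels.

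Loss of Tcf1 and Lef1 went with a higher Epx level and with lower receptor transcripts, while Prg2 and Prg3 overlapped between genotypes. Prg2 was at 169.2, 196.6 and 155.6 FPKM in dKO libraries and at 159.9, 168.0 and 170.6 FPKM in WT libraries. Prg3, the homologue of Prg2 that lies next to it on chromosome 2, was at 13.5, 13.7 and 12.04 FPKM in dKO libraries and at 12.7, 13.8 and 13.5 FPKM in WT libraries. For both genes the ranges of the genotypes overlapped, with a log2 difference of 0.06 ± 0.10 for Prg2 and -0.03 ± 0.06 for Prg3 (SE from the spread of the 2 groups, log2(FPKM + 1) scale). The sign for Prg2 turned to -0.08 under quantile normalization.

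Epx, the haem peroxidase of the granule, stood apart from them. Its level was 17.1, 18.7 and 15.9 FPKM in dKO libraries and 10.7, 8.93 and 10.1 FPKM in WT libraries. Every dKO library was above every WT library, with a mean 1.73 times as high and a log2 difference of 0.74 ± 0.10 (SE). Epx was thus above Prg3 in each dKO library and below it in each WT library. The ratio of Prg2 to Epx was 9.81 to 10.5 in dKO libraries and 14.9 to 18.8 in WT libraries, whereas the ratio of Prg2 to Prg3 was 12.5 to 14.3 in dKO and 12.2 to 12.6 in WT.

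The ribonucleases had few reads. Ear1 was at 0.090, 0.332 and 0.212 FPKM in dKO libraries and at 0.646, 0.307 and 0.339 FPKM in WT libraries, or 15 reads in all dKO libraries and 30 in all WT libraries. Ear2 was at 1.03, 0.578 and 0.887 FPKM in dKO libraries and at 1.71, 0.741 and 1.52 FPKM in WT libraries. Both sets of libraries overlapped. Transcripts of Ear1 and Ear2 are 96.8% identical over 713 aligned bases, and 23.8% of the 50-base windows of Ear1 occur unchanged in Ear2. The sources used here do not state the handling of reads that fit more than 1 such copy. Ear2 held 40, 17 and 36 reads in WT replicates 1, 2 and 3, and the related Ear3 and Ear12 held 39, 17 and 36 each. In PGE1 replicate 1 the counts were 9 for Ear2 and 3 each for Ear3 and Ear12. The split among Ear1, Ear2, Ear3 and Ear12 is therefore uncertain.

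Both receptors were lower in dKO. Il5ra was at 0.072, 0.075 and 0.068 FPKM in dKO libraries and at 0.112, 0.202 and 0.170 FPKM in WT libraries, a mean 2.25 times lower in dKO. Ccr3 was at 0, 0.045 and 0.009 FPKM in dKO libraries and at 0.262, 0.315 and 0.258 FPKM in WT libraries. This rested on 6 reads over the dKO libraries and 89 over the WT libraries, and the dKO mean was 15.4 times lower. No dKO library reached the lowest WT library for either gene, although both genes lay far below 1 FPKM.

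Of the 7 genes, 4 passed the minimum of a mean of 1 FPKM in the untreated fit (Prg2, Prg3, Epx and Ear2), and 1 of these, Epx, was past the threshold and higher, beside 18.0% of all 10721 genes tested that were past it and higher and 40.9% in either direction. Libraries did not overlap for 1 gene that was higher in dKO (25.3% of all genes tested) and 2 that were lower (29.6%). The 2 lower genes, Il5ra and Ccr3, were under the minimum level and so lie outside the genes that gave that share. Ear2 was past the threshold as well, and lower in dKO, in 2 of the 9 alternatives where it was tested. These were without WT replicate 2, the lowest WT library for it, and with the replicate block. Ear2 averaged 1.32 FPKM in WT and 0.831 FPKM in dKO, so the WT group carried it past the minimum level. The gene was also chosen from these levels, so the calls are a description and no support for a difference. The median log2 difference of the 7 genes was -0.12, against -0.01 over all genes tested.

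In PGE1-treated LSCs the granule protein transcripts were low, to an extent that differed widely among the 3 libraries. Prg2 was at 19.3, 0.245 and 5.73 FPKM in PGE1 replicates 1, 2 and 3, against 64.1, 52.4 and 55.7 FPKM in DMSO replicates 1, 2 and 3. In reads this was 356, 4 and 101 in PGE1 libraries and 1159, 997 and 998 in DMSO libraries. All PGE1 libraries lay below all DMSO libraries, and the PGE1 libraries lay much further apart than the DMSO libraries did. Set against the DMSO mean, Prg2 was 2.97 times lower in PGE1 replicate 1, 235 times lower in replicate 2 and 10.01 times lower in replicate 3. The PGE1 mean was 6.81 times lower than the DMSO mean, and 4.58 times lower without PGE1 replicate 2. The log2 difference was -3.39 ± 1.17 (SE) with that library and -2.31 ± 0.60 without it. In these bulk libraries, fewer cells that express a gene and less RNA per cell cannot be told apart.

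Prg3 and Epx followed the same order of libraries. Prg3 was at 1.82, 0 and 1.30 FPKM in PGE1 replicates 1, 2 and 3, against 4.74, 2.92 and 3.89 FPKM in DMSO. Epx was at 1.77, 0 and 0.212 FPKM in PGE1 replicates 1, 2 and 3, against 3.22, 3.36 and 4.03 FPKM in DMSO. In PGE1 replicate 2 neither gene had a read, so against a floor of 3 reads in that library Prg3 was at least 23.8-fold lower and Epx at least 61.9-fold lower than the DMSO mean. In PGE1 replicate 1, which kept the most of each transcript, Epx was 1.99 times and Prg3 2.12 times lower than the DMSO mean. The mean of PGE1 libraries was 3.70 times lower than that of DMSO libraries for Prg3 (2.47 times without PGE1 replicate 2) and 5.34 times lower for Epx (3.56 times without it).

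In PGE1 replicates 1 and 3 the ratios among the 3 granule transcripts lay outside the range of the DMSO libraries. Those of replicate 3 rested on 26 reads of Prg3 and 12 of Epx, and replicate 2 had no read of either. Prg2 to Prg3 stood at 10.6 in PGE1 replicate 1 and 4.4 in replicate 3, against 13.5 to 17.9 in DMSO libraries. Prg2 to Epx stood at 10.9 in PGE1 replicate 1 and 27.0 in replicate 3, against 13.8 to 19.9 in DMSO libraries. Both PGE2 libraries also lay outside the DMSO range for Prg2 to Prg3, at 13.3 in replicate 1 and 18.5 in replicate 2. For Prg2 to Epx, PGE2 replicate 1 lay outside it at 12.5, and PGE2 replicate 2 lay inside it. Ratios outside the DMSO range were therefore not particular to PGE1. The summed FPKM of the 7 genes was 23.6, 0.596 and 7.47 in the PGE1 libraries, against 59.7 to 73.2 in the DMSO libraries. By rank among all genes, Prg2 stood at 3041, 12888 and 7372 in PGE1 replicates 1, 2 and 3, against 751 to 884 in DMSO.

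**Figure D2:**
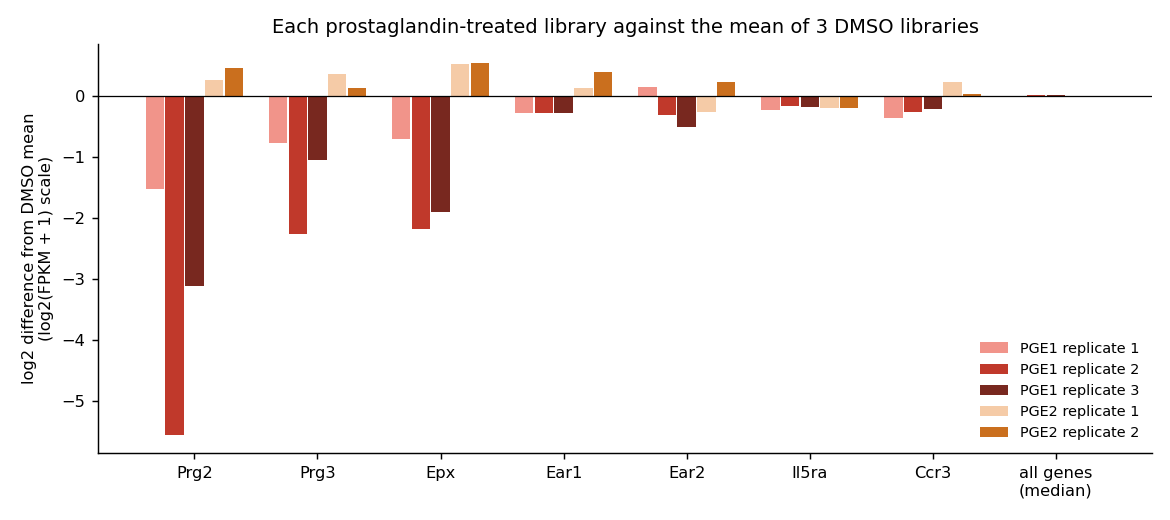
Log2 difference of each PGE1 and PGE2 library from the mean of the 3 DMSO libraries, for the 7 genes and for the median of all genes tested (bars, log2(FPKM + 1) scale, 1 colour per library). For Prg2 the PGE1 libraries stand at -1.52, -5.55 and -3.11, while their medians over all genes lie at -0.01, 0.01 and 0.01.

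The remaining genes were read few times in PGE1. Ear1 had 0 reads in all 3 PGE1 libraries, against 3, 3 and 4 reads in DMSO libraries, at least 3.18-fold lower against a floor of 3 reads over the group. Ear2 had 9, 2 and 0 reads in PGE1 libraries, against 6, 6 and 8 reads in DMSO libraries, and the groups overlapped. Il5ra was at 0.077, 0.130 and 0.107 FPKM in PGE1 libraries, against 0.144, 0.322 and 0.329 FPKM in DMSO. Its PGE1 mean was 2.53 times lower, without overlap, and the replicate that was lowest for the granule genes was the highest of the 3 for Il5ra. Ccr3 was at 0.014, 0.078 and 0.116 FPKM in PGE1 libraries, against 0.340, 0.175 and 0.385 FPKM in DMSO, with a PGE1 mean 4.32 times lower. In PGE1 replicates 1, 2 and 3 these levels came from 6, 9 and 8 reads of Il5ra and 1, 5 and 8 reads of Ccr3. With so few reads, the order of these libraries for the receptors cannot be set firmly against that of Prg2, Prg3 and Epx.

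In this comparison 3 of the 7 genes passed the minimum level (Prg2, Prg3 and Epx), and all 3 were past the threshold and lower, beside 25.5% of 11242 genes tested that were past it and lower and 49.1% in either direction. Libraries did not overlap, with PGE1 lower, for 6 of the 7 genes, beside 29.2% of all genes tested. Of the 6, Ear1, Il5ra and Ccr3 were under the minimum level and so lie outside the genes that gave that share. Genes under the minimum level, where the pseudocount of 1 keeps differences small, enter the median of the 7 genes but not that of all genes tested. The median log2 difference of the 7 genes was -0.28, also with Ear1 set at its 3-read floor, against 0.01 for all genes tested. Primary granule genes of neutrophils moved with these transcripts: 6 of 6 fell, and their summed level was 1945, 1143 and 947 FPKM in PGE1 replicates 1, 2 and 3, against 3996 to 4776 FPKM in DMSO. Mpo (myeloperoxidase) averaged 295.6 ± 172.4 FPKM in PGE1 and 1331 ± 122 FPKM in DMSO libraries (adjusted p = 4.32e-04, limma). PGE1 replicate 2, the lowest for Prg2, was not the lowest for that sum, and the part of such cells in the result was not tested.

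PGE2, which differs from PGE1 by an additional double bond in a side chain, was given at the same dose and for the same time, and in PGE2-treated LSCs the granule transcripts were at or above the DMSO level. Prg2 was at 68.9 and 78.6 FPKM in PGE2 libraries, against the 52.4 to 64.1 FPKM of DMSO, a mean 1.29 times as high with a log2 difference of 0.36 ± 0.13 (SE). Epx was at 5.50 and 5.601 FPKM in PGE2 libraries, against 3.22 to 4.03 FPKM in DMSO, with a mean 1.57 times as high and a log2 difference of 0.53 ± 0.10. Both PGE2 libraries were above every DMSO library for these genes. Prg3 was at 5.18 and 4.26 FPKM in PGE2 libraries, against 2.92 to 4.74 FPKM in DMSO, and the groups overlapped.

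Ear1 was at 0.323 and 0.590 FPKM in PGE2 libraries (5 and 8 reads), above the 0.186 to 0.263 FPKM of DMSO. Ear2 (0.192 and 0.660 FPKM) and Ccr3 (0.519 and 0.321 FPKM) overlapped with DMSO. Il5ra alone was lower, at 0.103 FPKM in both PGE2 libraries, a mean 2.56 times lower than in DMSO. Of the 3 genes that passed the minimum level, 0 were past the threshold in limma and 0 had an unadjusted p under 0.05, beside 5.57% of all genes tested that were past the threshold. The spread in that fit is shared with the PGE1 libraries, and the SE it gave for Prg2 was 0.89. Epx was past the threshold in PGE2 against DMSO in 1 of 13 alternatives, that without PGE1 replicate 1. Libraries did not overlap for 3 of the 7 genes that were higher in PGE2 (25.0% of all genes tested) and 1 that was lower (24.1%). Ear1 among the higher and Il5ra, the lower, were under the minimum level and lie outside these shares. The median log2 difference of the 7 genes was 0.25, against 0.00 for all genes tested.

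Set directly against PGE2, PGE1 had lower granule transcripts. The PGE1 mean was 8.75 times lower than the PGE2 mean for Prg2, 4.53 times lower for Prg3 and 8.38 times lower for Epx. Without PGE1 replicate 2 these ratios were 5.89, 3.02 and 5.59. Ear1 was at least 6.77-fold lower in PGE1 (floor of 3 reads over the group), and Ccr3 6.05 times lower. Il5ra, by contrast, averaged 0.105 FPKM in PGE1 and 0.103 FPKM in PGE2 libraries and overlapped, as did Ear2. All 3 genes that passed the minimum level were past the threshold and lower, beside 26.7% of all genes tested that were so and 53.9% in either direction. For 5 of the 7 the libraries did not overlap, with PGE1 lower, beside 33.7% of all genes tested. Of the 5, Ear1 and Ccr3 were under the minimum level and lie outside that share. The median log2 difference of the 7 genes was -0.54 (-0.44 with Ear1 at its floor), against 0.02 for all genes tested. PGE1 and PGE2 share their DMSO libraries, so the contrasts with DMSO are not independent of each other.

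**Figure D3:**
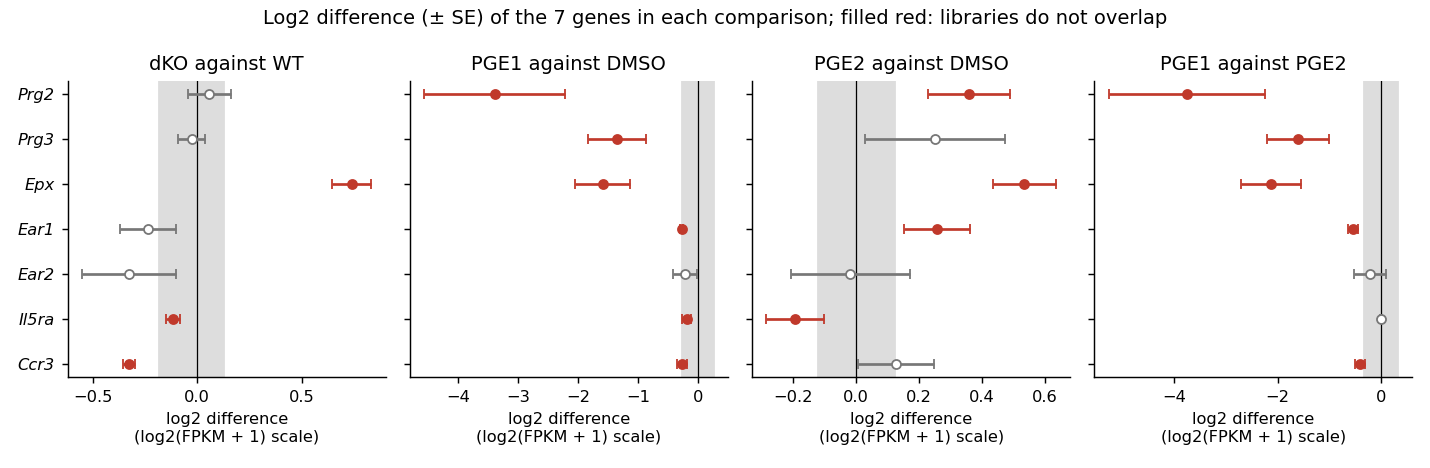
Log2 difference of each of the 7 genes (rows) in 4 comparisons (panels), on the log2(FPKM + 1) scale, with the SE as bars. Red filled points mark genes whose libraries do not overlap, the grey band holds the middle of all genes tested (the interquartile range), and the horizontal scale differs between panels. Epx is the 1 gene above 0 without overlap in dKO, and Prg2 reaches -3.39 in PGE1 against DMSO.

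DMSO-treated and WT LSCs both came from control marrow, and their levels of the granule genes differed. The DMSO libraries were shallower than the WT libraries, and the labels do not say whether they were prepared together. Prg2 averaged 57.4 ± 6.1 FPKM in DMSO and 166.2 ± 5.6 FPKM in WT libraries (SD, n = 3 each). Epx averaged 3.54 ± 0.43 FPKM in DMSO and 9.91 ± 0.90 FPKM in WT libraries, and Prg3 3.85 ± 0.91 FPKM in DMSO and 13.3 ± 0.6 FPKM in WT libraries. The DMSO libraries lay below the WT libraries for 5 of the 7 genes, beside 35.0% of 11115 genes that averaged at least 1 FPKM over both groups. Of the 5, Ear1 and Ear2 averaged less and lie outside that share. Il5ra and Ccr3 overlapped. Vehicle, added time and any difference in preparation cannot be told apart here.

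Other eosinophil ribonucleases were read alongside Ear1 and Ear2. Of 12 listed genes 10 are in the files, and 4 of them (Ear4, Ear10, Ear14 and Rnase2b) were at 0 in every library. Ear3 and Ear12 held identical FPKM values in 14 of 14 libraries. In dKO LSCs 1 of 5 tested, with Ear3 and Ear12 counted separately, rose and 1 fell, beside 40.9% of all genes tested that were past the threshold. Ear6 averaged 4.57 ± 0.93 FPKM in dKO and 3.17 ± 0.47 FPKM in WT libraries (adjusted p = 0.04, limma), and Rnase6 0.879 ± 0.296 FPKM in dKO and 2.41 ± 0.25 FPKM in WT libraries (adjusted p = 1.38e-03). Rnase6 averaged under 1 FPKM in dKO, so the WT group carried it past the minimum level. The call on Ear6 did not survive leaving out any of WT replicates 1 to 3 (adjusted p = 0.0749, 0.127 and 0.0573) or dKO replicates 2 and 3 (0.0961 and 0.0851), nor the removal of the minimum level (0.0867). In PGE1, 2 of 3 tested, Ear6 and Ear7, fell against DMSO, beside 25.5% of all genes tested. Their reads ran together, at 16, 6 and 34 for Ear6 and 13, 5 and 32 for Ear7 in DMSO replicates 1, 2 and 3. Whether they share reads was not tested, so they cannot be counted as 2 separate falls. Both averaged under 1 FPKM in PGE1, so the other treated groups carried them past the minimum level. Ear6 was at 0.383, 0 and 0 FPKM in PGE1 replicates 1, 2 and 3, against 1.04, 0.371 and 2.23 FPKM in DMSO (adjusted p = 0.0255), and Ear7 at 0.583, 0 and 0 FPKM in PGE1, against 1.29, 0.471 and 3.20 FPKM in DMSO (adjusted p = 0.0316).
The groups overlapped for both, and both calls were lost without DMSO replicate 1 (adjusted p = 0.0613 for Ear6 and 0.0673 for Ear7), PGE1 replicate 2 (0.0577 and 0.0723) or PGE1 replicate 3 (0.0734 and 0.0906) and with no level minimum (0.0557 and 0.0701). The call on Ear7 was also lost without DMSO replicate 3 (0.0734). Against PGE2, the same 2 of 3 genes were lower in PGE1, beside 26.7% of all genes tested. The PGE2 libraries held 2.28 ± 0.22 FPKM of Ear6 and 2.83 ± 0.03 FPKM of Ear7 (SD, n = 2, adjusted p = 2.95e-03 and 5.15e-03). In PGE2 against DMSO 0 of 3 passed in limma, and 0 had an unadjusted p under 0.05.

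Transcription factors of the lineage were expressed in all groups, and 13 of 13 were tested. In dKO LSCs 3 rose and 8 fell, beside 40.9% of all genes tested that were past the threshold in either direction. The median log2 difference of the 13 was -0.24. Id2, an inhibitor of basic helix-loop-helix factors, averaged 3.997 ± 1.12 FPKM in dKO and 20.4 ± 1.1 FPKM in WT libraries (adjusted p = 2.95e-05). Trib1, a pseudokinase that promotes turnover of C/EBP alpha, averaged 1.03 ± 0.61 FPKM in dKO and 4.63 ± 0.77 FPKM in WT libraries (adjusted p = 8.67e-04). Xbp1, a factor of the unfolded protein response that mouse eosinophil progenitors need, rose, at 184.9 ± 7.2 FPKM in dKO against 116.2 ± 4.3 FPKM in WT libraries (adjusted p = 2.81e-05). Irf8, an interferon regulatory factor of myeloid progenitors, fell, at 13.9 ± 0.6 FPKM in dKO against 32.1 ± 0.4 FPKM in WT libraries (adjusted p = 1.55e-06).

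In PGE1, 4 of the 13 rose and 7 fell against DMSO, beside 49.1% of all genes tested that were past the threshold in either direction. The median log2 difference of the 13 was -0.49. Gata1, which mouse eosinophil development requires, was 2.94 times as high in PGE1, at 20.6 ± 1.2 FPKM in PGE1 and 7.003 ± 0.855 FPKM in DMSO libraries (adjusted p = 8.66e-06). Its PGE1 libraries were at 19.3, 21.8 and 20.7 FPKM, so they stood close together where those of Prg2 did not. Id1 fell, at 5.61 ± 3.01 FPKM in PGE1 and 46.2 ± 5.1 FPKM in DMSO libraries (adjusted p = 6.65e-05), as did Irf8, at 9.56 ± 0.57 FPKM in PGE1 and 24.6 ± 1.9 FPKM in DMSO libraries (adjusted p = 5.35e-06). Trib1 fell in both prostaglandin groups, at 6.28 ± 0.22 FPKM in PGE1 (adjusted p = 2.43e-05) and 5.55 ± 0.07 FPKM in PGE2 (adjusted p = 1.53e-04), against 12.8 ± 1.0 FPKM in DMSO. It was the 1 factor of 13 that passed in PGE2, beside 5.57% of all genes tested. Between PGE1 and PGE2, 4 rose and 6 fell in PGE1, beside 53.9% of all genes tested that were past the threshold. Cebpa, a C/EBP factor of granulocyte progenitors, averaged 41.8 ± 8.7 FPKM in PGE1 and 123.3 ± 3.4 FPKM in PGE2 libraries (adjusted p = 5.25e-05). Gata2 averaged 60.1 ± 2.8 FPKM in PGE1 and 33.2 ± 0.6 FPKM in PGE2 libraries (adjusted p = 2.54e-05).

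Of genes of the receptor chains and kinases that carry interleukin 5, interleukin 3 and GM-CSF signals, 9 of 11 fell and 0 rose in dKO. Of all genes tested, 40.9% were past the threshold in either direction. The median log2 difference of the 11 was -0.44. Csf2rb, the beta chain that pairs with Il5ra, averaged 36.0 ± 0.9 FPKM in dKO and 59.1 ± 1.4 FPKM in WT libraries (adjusted p = 9.04e-06). Csf2rb2, the mouse beta chain specific to interleukin 3, averaged 4.11 ± 0.26 FPKM in dKO and 16.1 ± 1.1 FPKM in WT libraries (adjusted p = 1.48e-06). Fcer1g, the Fc receptor gamma chain, averaged 43.7 ± 1.8 FPKM in dKO and 104.0 ± 2.5 FPKM in WT libraries (adjusted p = 1.03e-06). The 2 other genes, Stat5a and Syk, did not pass.

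In PGE1 the same list had 6 of 11 genes that rose and 0 that fell against DMSO. Of all genes tested, 49.1% were past the threshold in either direction. The median log2 difference of the 11 was 0.23. Stat5b, a transcription factor downstream of these receptors, averaged 20.9 ± 2.2 FPKM in PGE1 and 12.9 ± 0.5 FPKM in DMSO libraries (adjusted p = 2.17e-04), and the kinase Syk 61.8 ± 3.0 FPKM in PGE1 and 43.4 ± 3.5 FPKM in DMSO libraries (adjusted p = 5.50e-04). In PGE2, Csf2rb2 was the 1 of 11 that passed, beside 5.57% of all genes tested. It fell, at 40.8 ± 1.3 FPKM in PGE2 and 71.4 ± 8.4 FPKM in DMSO libraries (adjusted p = 9.94e-03). This call was lost without PGE2 replicate 1 (adjusted p = 0.0869) or PGE2 replicate 2 (0.121). Directly against PGE2, 7 of 11 were higher in PGE1 and 0 lower, beside 53.9% of all genes tested that were past the threshold. Among the 7 was Csf2rb2, at 101.4 ± 14.4 FPKM in PGE1 (adjusted p = 7.34e-05).

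Of surface and lipid mediator genes, 7 of 10 tested fell and 1 rose in dKO, beside 40.9% of all genes tested that were past the threshold. C3ar1, the receptor for complement C3a, averaged 0.753 ± 0.058 FPKM in dKO and 7.17 ± 0.31 FPKM in WT libraries (adjusted p = 5.21e-07). Adgre1, which encodes F4/80, averaged 3.52 ± 0.64 FPKM in dKO and 15.4 ± 0.8 FPKM in WT libraries (adjusted p = 9.63e-06), and Pirb, an inhibitory receptor, 0.305 ± 0.080 FPKM in dKO and 4.63 ± 0.30 FPKM in WT libraries (adjusted p = 1.70e-06). C3ar1 and Pirb averaged under 1 FPKM in dKO, so the WT group carried them past the minimum level. Siglecf was lower too, at 3.13 ± 0.09 FPKM in dKO against 5.80 ± 0.51 FPKM in WT libraries. Because Siglecf was named after its values were seen, its levels are given without a p-value. In PGE1, 5 of 13 rose and 5 fell against DMSO, beside 49.1% of all genes tested that were past the threshold. Adgre1 averaged 3.37 ± 0.14 FPKM in PGE1 and 17.4 ± 0.7 FPKM in DMSO libraries (adjusted p = 1.77e-07). The integrin chain Itgb7 rose, at 83.1 ± 8.1 FPKM in PGE1 and 55.3 ± 2.5 FPKM in DMSO libraries (adjusted p = 3.76e-04).

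Siglecf was lower in PGE1 than in DMSO, at 2.66, 1.94 and 1.78 FPKM in PGE1 and 4.22, 3.79 and 4.06 FPKM in DMSO libraries. It was at 6.14 and 5.89 FPKM in PGE2 libraries, which lay above every PGE1 library and did not pass against DMSO in limma. In PGE2, 2 of 13 fell against DMSO and 0 rose, beside 5.57% of all genes tested that were past the threshold. Itgb7 averaged 35.2 ± 0.6 FPKM in PGE2 (adjusted p = 4.09e-03), and Pirb 7.88 ± 0.17 FPKM in PGE2 and 12.7 ± 0.8 FPKM in DMSO libraries (adjusted p = 0.0495). The call on Itgb7 was lost without either PGE2 library (adjusted p = 0.0524 and 0.0699), and that on Pirb without any single DMSO or PGE2 library (adjusted p of 0.106 to 0.304). Between PGE1 and PGE2, 5 of 13 were higher and 4 lower in PGE1, beside 53.9% of all genes tested that were past the threshold.

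**Figure D4:**
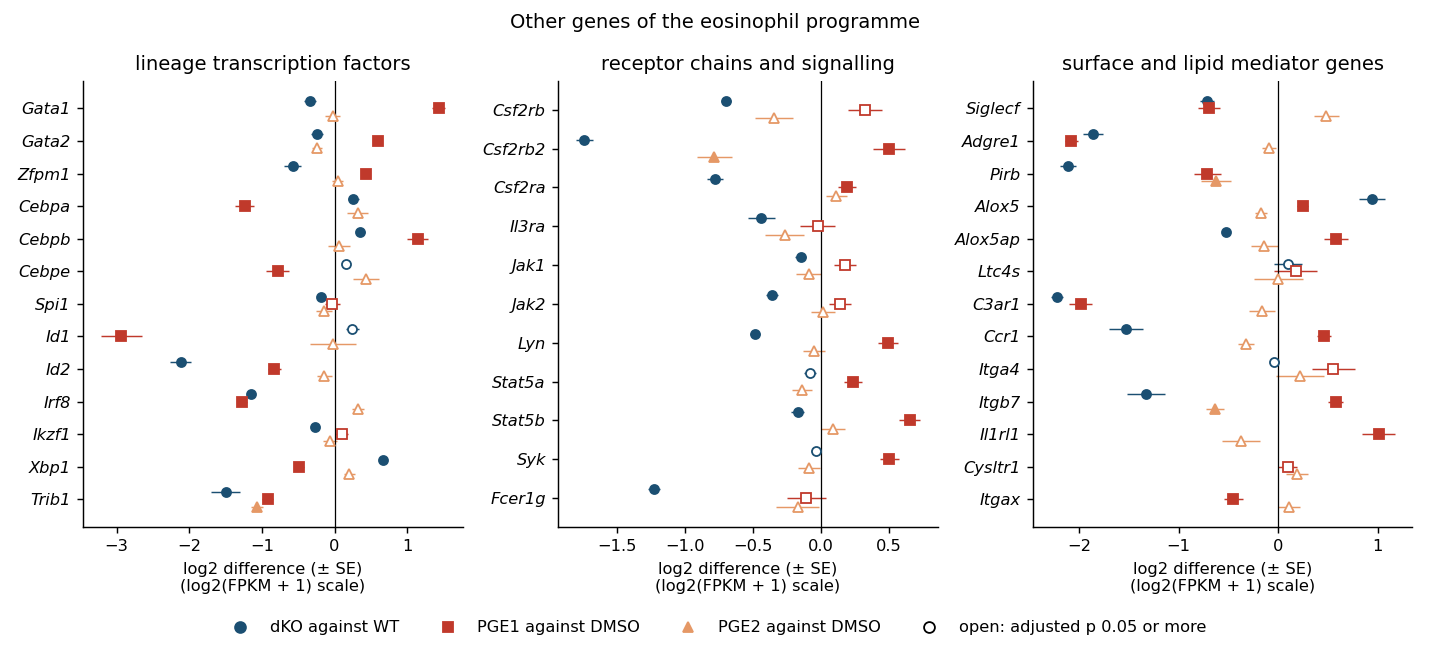
Log2 difference with SE (limma, log2(FPKM + 1) scale) of tested genes of 3 lists, transcription factors, receptor chains with signalling genes, and surface with lipid mediator genes, in dKO against WT (circles), PGE1 against DMSO (squares) and PGE2 against DMSO (triangles). Filled symbols are past an adjusted p of 0.05. Of the signalling genes, 9 of 11 fell in dKO and 6 of 11 rose in PGE1. Of all genes tested, 40.9% and 49.1% were past the threshold in either direction in these comparisons.

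Of 10 genes for ligands of these receptors and related cytokines, 3 passed the minimum level in each fit. Il3 and Ccl11 were at 0 in every library, and Il5 (interleukin 5) was at 0.102 FPKM or below in every library. In dKO 1 rose and 2 fell, beside 40.9% of all genes tested that were past the threshold in either direction. The eotaxin gene Ccl24 averaged 1.63 ± 0.45 FPKM in dKO and 0.570 ± 0.149 FPKM in WT libraries (adjusted p = 5.18e-03). Ccl7 averaged 0.662 ± 0.513 FPKM in dKO and 6.49 ± 0.13 FPKM in WT libraries (adjusted p = 9.41e-05). Both averaged under 1 FPKM in the lower group, so the group where each was high carried it past the minimum level. In PGE1 3 of 3 fell against DMSO, beside 25.5% of all genes tested. In PGE2 2 of 3 fell, beside 5.57% of all genes tested that were past the threshold in either direction. Ccl5, a chemokine read by Ccr3, averaged 14.6 ± 3.1 FPKM in PGE1 (adjusted p = 2.63e-03) and 3.20 ± 0.37 FPKM in PGE2 (adjusted p = 3.79e-05), against 23.4 ± 1.2 FPKM in DMSO. The alarmin Il33 averaged 0.054 ± 0.093 FPKM in PGE1 (adjusted p = 1.01e-05) and 0.607 ± 0.167 FPKM in PGE2 (adjusted p = 1.55e-03), against 2.61 ± 0.33 FPKM in DMSO. Of the treated groups only DMSO averaged above 1 FPKM of Il33, so that group carried it past the minimum level. Between PGE1 and PGE2, 1 was higher and 2 were lower in PGE1, beside 53.9% of all genes tested that were past the threshold.

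Markers of other cells moved in the same comparisons, and their part in the results for the 7 genes was not tested. Of all genes tested, 40.9% were past the threshold in dKO against WT. The shares were 49.1% in PGE1 against DMSO and 5.57% in PGE2 against DMSO, and all marker counts stand beside these shares. In dKO, 5 of 6 neutrophil primary granule genes rose, with a summed level of 9637 to 10590 FPKM in dKO and 7094 to 7445 FPKM in WT libraries. Under quantile normalization the calls on Ctsg (log2 difference 0.05, adjusted p = 0.35) and Elane (adjusted p = 1.0) were lost. Of monocyte and macrophage genes, 10 of 11 fell, with 478.5 to 582.3 FPKM in dKO and 1212 to 1261 FPKM in WT libraries. Mast cell and basophil genes had 1 of 9 that rose and 6 that fell, with a sum of 121.6 to 128.9 FPKM in dKO and 195.7 to 200.7 FPKM in WT libraries. Late granule genes of neutrophils (1 of 10 rose, 5 fell), megakaryocyte genes (9 of 9 fell), erythroid genes (5 of 7 fell), B lymphoid genes (2 of 4 rose) and T and NK cell genes (1 of 2 rose) completed the set, and Cd3e, Cd3g, Cd3d, Cd8a and Ncr1 were at 0 in every dKO library.

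In PGE1 against DMSO, 6 of 11 mast cell and basophil genes rose and 2 fell, with a summed level of 403.0 to 520.2 FPKM in PGE1 and 400.8 to 414.4 FPKM in DMSO libraries. Cpa3, the mast cell carboxypeptidase, averaged 31.6 ± 4.4 FPKM in PGE1 and 17.4 ± 0.9 FPKM in DMSO libraries (adjusted p = 1.79e-04). Counts for other lists were 1 up and 8 down of 11 late neutrophil granule genes, 2 up and 6 down of 12 monocyte and macrophage genes, 2 up and 2 down of 9 megakaryocyte genes, 2 up and 3 down of 7 erythroid genes, and 1 down each of 1 B lymphoid and 2 T and NK cell genes. Kit rose, at 42.2 ± 6.6 FPKM in PGE1 and 26.1 ± 2.5 FPKM in DMSO libraries (adjusted p = 1.42e-03), while Ly6a did not pass. In PGE2 against DMSO the primary granule list had 0 of 6 past the limma threshold (2 with an unadjusted p under 0.05), with a sum of 6048 and 6134 FPKM in PGE2 and 3996 to 4776 FPKM in DMSO libraries, the late granule and monocyte lists 2 up each, the mast cell list 2 down, the erythroid list 1 down and the megakaryocyte, B lymphoid and T and NK cell lists 0 (5, 0 and 0 with an unadjusted p under 0.05 in limma). The 4 calls behind the late granule and monocyte counts were each lost without either PGE2 library, at adjusted p of 0.214 and 0.321 for Ngp, 0.214 and 0.166 for Chil3, 0.168 and 0.144 for Cd14 and 0.0701 and 0.0671 for Mpeg1 without PGE2 replicates 1 and 2. Without DMSO replicate 2 or 3, Ngp (0.168 and 0.161), Chil3 (0.106 and 0.103) and Cd14 (0.0713 and 0.0835) were lost too.

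Across all 14 libraries the genes whose profiles were most like that of Prg2 were not the other granule genes. Clone-type symbols were left out. Among 11078 genes that averaged 1 FPKM or more, the root mean square difference between profiles of log2(FPKM + 1), each centred and scaled to unit SD, was smallest for Mettl1 (0.166), Neto2 (0.213), Cstf2 (0.217), Taf4b (0.22) and Celsr1 (0.221), while Prg3 ranked 127 (0.306) and Epx 244 (0.34). For Epx it was smallest for Xpot (0.117), Eprs (0.118), Tex2 (0.122), Dars (0.144) and Hn1l (0.146), with Prg3 at rank 593 and Prg2 at rank 944. These are descriptions over libraries that share groups and depth.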

How the data were processed

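Each library has a file of 24463 gene symbols with FPKM values, as deposited. Per the submitters' processing notes, the authors' tools included Cufflinks, TopHat and CASAVA 1.8, with the build mm9, whose genome was not used here; sequences and their coordinates are from RefSeq on GRCm38.p6, and transcript identities from GENCODE. The values are whole multiples of 1 read for 99.96% of 19057 genes with reads (within 0.0001 of a read), which gave the reads per library and gene. Read counts cover counting error only.

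Values were tested as log2(FPKM + 1) in limma 3.58.1 (R 4.3.3; linear model, empirical Bayes with a mean-variance trend, two-sided). Genes that averaged under 1 FPKM in a fit were left out, with Benjamini-Hochberg adjustment over all genes tested and a threshold of 0.05. A gene high in 1 group can pass this minimum through that group alone, which favours a difference there. The 6 untreated libraries formed a first fit and the 8 treated libraries a second. Folds are ratios of mean FPKM; log2 differences with the pseudocount of 1 understate changes of low genes. Python 3.11.15 with pandas 2.3.3 and matplotlib 3.10.9 did the rest.

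The 7 genes and the 14 lists were chosen with earlier results of these data known. Of 153 list entries 145 are in the files; some of the others are older symbols. Named list genes were up to 4 per list and comparison with the smallest p among those that passed, plus Kit, Ly6a, Tcf7 and, after its values were seen, Siglecf. Alternatives were another pseudocount, level minimum, scaling, replicate block, and each library left out.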

Additional observations from a re-analysis of the deposited data

How the results depend on the processing

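Genes called in dKO against WT numbered 4381, 44.1% of them higher in dKO, and 60.0% were higher under quantile normalization, 56.2% under median-of-ratios scaling, 35.2% without a level minimum and 54.7% when it was 5 FPKM. Leaving out 1 library gave 3053 to 5277 calls there, 4534 to 6126 in PGE1 against DMSO (5515 with all libraries), 125 to 1218 in PGE2 against DMSO (626) and 4253 to 6653 in PGE1 against PGE2 (6057). Replicate numbers share only a number: same-number correlations of deviations ran from -0.249 to 0.253 and were not over 0.1 in every pair. With the replicate block the calls were 3972, 5191, 269 and 5313 in the same order of comparisons, Ear2 was past the threshold in dKO against WT, and calls were lost on Ear6 in dKO against WT (adjusted p = 0.0692), on Ngp (0.131), Chil3 (0.0962), Pirb (0.0752) and Cd14 (0.0516) in PGE2 against DMSO, and on 2 further named list genes in PGE1 against PGE2.

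Of the values of the 7 genes under alternatives, 349 stayed within the spread between replicates and 29 moved, mainly with a pseudocount of 0.1, where PGE1 against DMSO gave log2 differences of -2.59 for Prg3 and -3.22 for Epx. Of the values of list genes, 77 lost their call and 1834 kept their side; the cause was not tested. With no minimum, genes below 1 FPKM rest on few reads, which limits Ear1, Ear2, Il5ra and Ccr3 in all groups.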
